A study of Sus scrofa with 4 samples.

Results

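The LGR receptors, the R-spondins that bind them and the E3 ligases they act on form a signalling module of 9 genes, whose members are set by family membership. The members are the receptors LGR4, LGR5 and LGR6, the ligands RSPO1, RSPO2, RSPO3 and RSPO4, and the ligases RNF43 and ZNRF3. All 9 were found among the 29263 genes of the count tables, 8 by symbol and RNF43 by its Ensembl identifier, ENSSSCG00000017640, which the gene name table pairs with that symbol.

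RNF43 and ZNRF3 are transmembrane ubiquitin ligases that remove Frizzled receptors, the receptors for Wnt proteins, from the cell surface. R-spondins are secreted proteins that bridge an LGR receptor to one of these ligases and clear the ligase from the membrane, so that more Frizzled remains and the cell responds more strongly to Wnt. LGR5, RNF43 and ZNRF3 are themselves Wnt targets in several tissues, and LGR5 is known as a marker of epithelial stem cells in the intestine.

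The libraries came from sorted lung cells of pigs carrying an LGR5-H2B-GFP knock-in, a reporter that places a fluorescent histone under the control of LGR5. Every library carries this knock-in, so the series holds no wild-type control. Cells were sorted on this fluorescence into GFP-HI and GFP-NEG, each with 2 biological replicates, after enzymatic digestion of the tissue and removal of dead cells that took up propidium iodide. The labels describe adult and fetal lung together, and only the name of the authors' comparison table carries the words adult pig. GFP-NEG is the fraction sorted as negative and not a defined cell type, and cells of intermediate fluorescence may lie in neither fraction. LGR5 is the gene that the sort reports, so its own difference is a description of the sort. In bulk libraries, fewer cells of a type and less RNA per cell cannot be told apart. Without transcript lengths, a gene was compared with itself across libraries and not with another gene.

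The GFP-HI libraries held 24200550 and 24689986 counts and the GFP-NEG libraries 6292253 and 7045652, so depth moved with the fraction. Of 19682 genes tested with edgeR's quasi-likelihood test, 8.35% were called higher and 27.6% lower in GFP-HI at a Benjamini-Hochberg adjusted p-value under 0.05. Levels are given as CPM, the count of a gene relative to the scaled library total. Among genes with a mean of 1 to 10 CPM, 1.47% were higher and 41.0% lower (42.4% in either direction), and among those of 10 to 100 CPM 14.7% were higher and 10.5% lower (25.2%). These ranges were chosen after the data were seen. The fibroblast list (11 genes matched, 8 higher and 0 lower) summed to 88519 and 84885 CPM in GFP-HI and to 26604 and 9518 CPM in GFP-NEG. The immune list (12 genes, 0 higher and 10 lower) summed to 415 and 783 CPM against 4090 and 5987 CPM, and the endothelial list (9 genes, 0 higher and 8 lower) to 213 and 210 CPM against 1391 and 589 CPM. The surfactant gene SFTPC of alveolar type 2 cells, a marker of lung tissue, had between 566 and 3432 counts in every library.

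**Figure D1:**
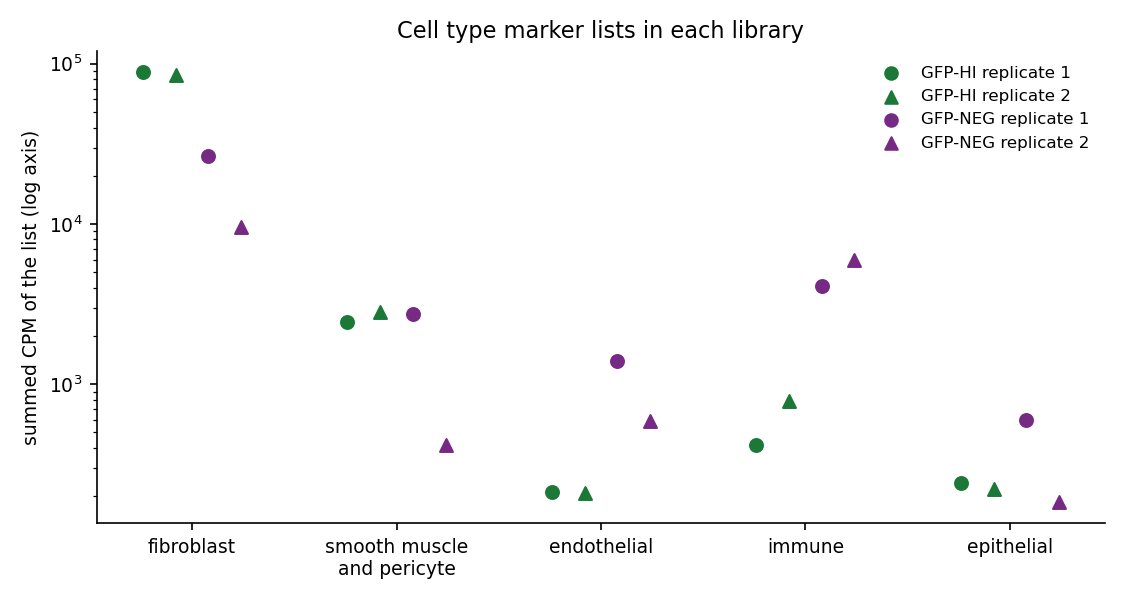
Summed CPM (log axis) of 5 lists of cell type markers in each of the 4 libraries, circles for replicate 1 and triangles for replicate 2. The fibroblast sum was higher in both GFP-HI libraries, the immune and endothelial sums were lower, and GFP-NEG replicate 1 lay above GFP-NEG replicate 2 for the smooth muscle and pericyte list by 6.51 times.

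Of the 9 members, 8 passed the filter on low counts, and RSPO4 did not. Among the 8, LGR4 and LGR5 were called higher and LGR6 and RSPO2 lower in GFP-HI, against 36.0% of all tested genes called in either direction. The other 4 (RSPO1, RSPO3, RNF43 and ZNRF3) were not called. Without LGR5, the median log2 fold change of the 7 remaining tested members was 0.74, beside -0.25 over all tested genes. That median was -0.29 within replicate 1 and 0.77 within replicate 2, and it was 0.023 without GFP-NEG replicate 2 and 0.017 with no filter on low counts, where RSPO4 enters and the median of all genes was -1.21.

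**Figure D2:**
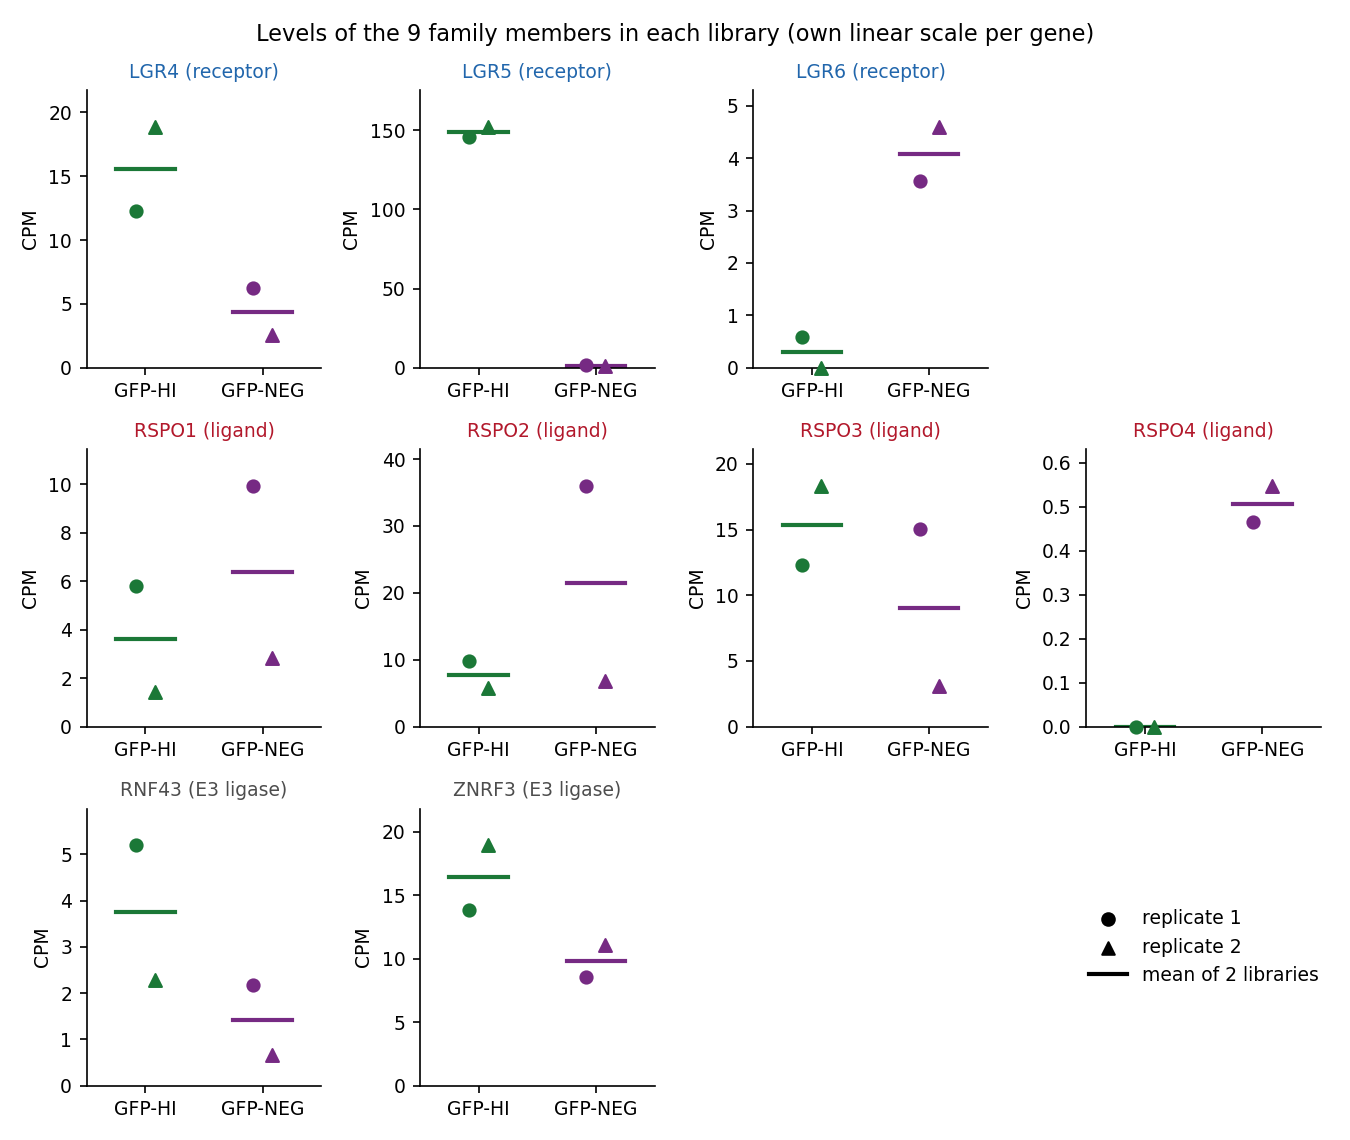
CPM of each of the 9 members (each panel has its own linear axis from 0) in GFP-HI and GFP-NEG, circles for replicate 1, triangles for replicate 2 and bars for the mean of 2 libraries. With the main scaling, all 3 receptors, both ligases and RSPO4 had fractions that did not overlap, whereas RSPO1, RSPO2 and RSPO3 overlapped. Of all tested genes, 27.7% were apart and higher in GFP-HI and 42.0% apart and lower.

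On the receptor side, the 3 LGR genes did not move together. LGR5 counts were 3218 and 3073 in the bright libraries and 10 and 7 in the negative ones. In CPM this was 146 and 152 against 1.55 and 0.767. The GFP-HI replicates differed by 1.04 times, less than those of any other member with counts in both, and the fitted difference was 131-fold (log2 fold change 7.03, SE 0.72). Its call (edgeR, adjusted p of 3.7e-19) describes the sort, which was made on LGR5, and is no result of its own. The GFP-NEG libraries still held LGR5 reads, with exact Poisson 95% intervals of 0.745 to 2.86 CPM and 0.309 to 1.58 CPM, which cover counting error only.

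LGR4, the more widely expressed relative of LGR5, was higher in the GFP-HI fraction. It had 12.3 and 18.9 CPM in GFP-HI and 6.21 and 2.52 CPM in GFP-NEG, and the lower GFP-HI value lay above both GFP-NEG values. The GFP-HI mean of 15.6 ± 4.67 CPM (SD, n = 2) compared with 4.37 ± 2.61 CPM (SD, n = 2) for GFP-NEG. The difference was 3.60-fold, a log2 fold change of 1.85 ± 0.70 (SE), with an adjusted p of 0.026 (edgeR). It was present within both replicates, at 0.97 in replicate 1 and 2.84 in replicate 2 on the log2 scale. The call was lost under upper-quartile scaling (adjusted p of 0.097) and library-size scaling (0.15), which shift all genes downward. Relative to the median of all tested genes the difference was 2.10 with the main scaling and 2.14 with library size alone. A change of scaling shifts all genes by nearly the same amount, so this value hardly moves for any gene. It therefore does not bear on whether the call holds. It was also lost without GFP-HI replicate 2 (adjusted p of 0.25) or without GFP-NEG replicate 2 (0.32), where 1 library stands for a fraction and is assumed to vary like the other.

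LGR6, the third R-spondin receptor, went the other way. LGR6 gave 23 and 42 counts in GFP-NEG but 13 and 0 in GFP-HI, although GFP-HI was sequenced 3.67 times as deeply on average. This was 0.589 and 0 CPM against 3.57 and 4.604 CPM. Both GFP-NEG libraries lay above both GFP-HI libraries, and the 0 counts of GFP-HI replicate 2 allow up to 0.149 CPM (3 counts). LGR6 was 13.4-fold lower in GFP-HI, at -3.74 ± 1.30 (SE) on the log2 scale (edgeR, adjusted p of 0.014). The difference was -2.35 within replicate 1 and -5.10 within replicate 2. The fit without GFP-HI replicate 1 gave -8.57, against a library at 0 counts, so that value is no bound. The call was lost without GFP-HI replicate 2 (-2.74, adjusted p of 0.19), without GFP-NEG replicate 1 (0.053) and without GFP-NEG replicate 2 (0.16). LGR6, with a mean of 2.19 CPM over the 4 libraries, belongs to the range of 1 to 10 CPM in which 41.0% of genes were called lower. LGR4, with 9.97 CPM, lies at the upper end of the same range, in which 1.47% were called higher, next to the range of 10 to 100 CPM with 14.7%.

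The balance among receptors within a library does not depend on scaling. For each LGR5 count, GFP-HI held 0.0842 and 0.124 LGR4 counts, and GFP-NEG held 4.0 and 3.29. Of the family's counts, LGR5 made up 70.9% and 69.9% in the bright libraries and 1.86% and 2.33% in the negative ones. These ratios and shares follow from the sort on LGR5 and are no result of their own. LGR4 itself was higher in GFP-HI.

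**Figure D3:**
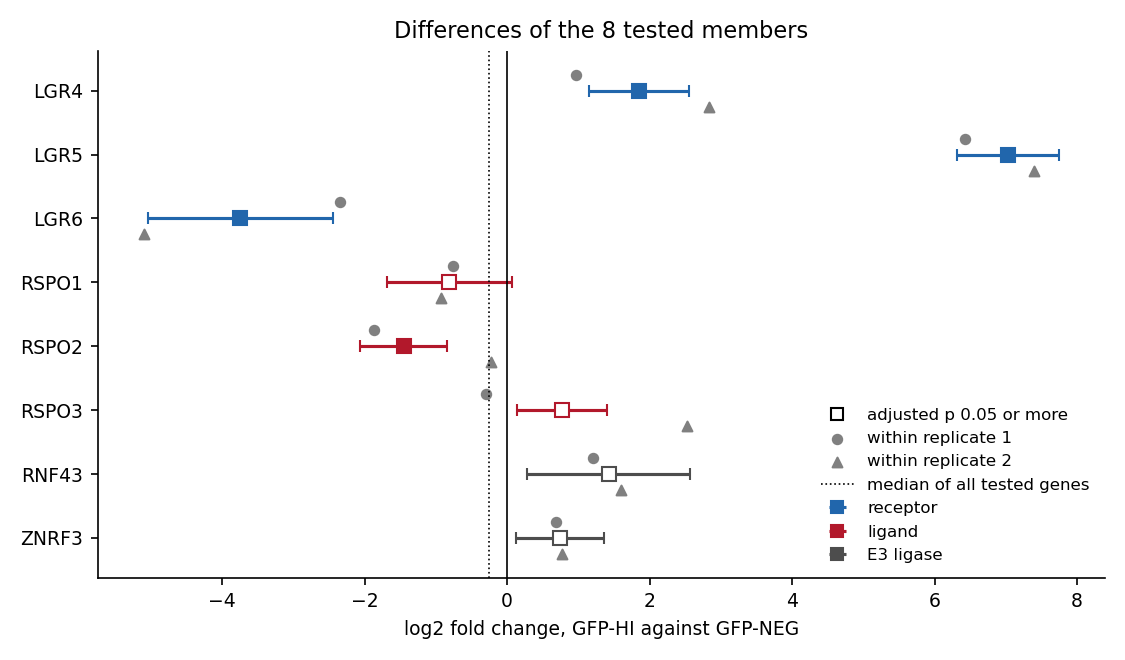
Log2 fold change of GFP-HI against GFP-NEG for the 8 tested members (squares, bars show the SE, open where the adjusted p was 0.05 or more), with the difference inside replicate 1 (circles) and replicate 2 (triangles). LGR4 and LGR5 lie to the right and LGR6 to the left in both replicates, while RSPO3 lies at -0.29 in replicate 1 and 2.53 in replicate 2.

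On the ligand side, no R-spondin had fractions that were apart in all 4 libraries at a level that could be tested. RSPO2, an R-spondin needed for lung and limb growth in mice, had 9.79 and 5.80 CPM in GFP-HI and 36.0 and 6.80 CPM in GFP-NEG. GFP-NEG replicate 1 was the high library, and the 3 others lay between 5.80 and 9.79 CPM. The fit put RSPO2 at -1.45 ± 0.61 (SE) on the log2 scale, just inside the threshold (edgeR, adjusted p of 0.048), where 27.6% of all genes were called lower, and 10.5% of those of 10 to 100 CPM, the range that holds RSPO2 at a mean of 14.6 CPM. The difference was -1.87 within replicate 1 and -0.22 within replicate 2. With a replicate block in the model, so that fractions were compared inside each replicate number, it was -1.08 and was not called (adjusted p of 0.13), where 24.4% of genes were called lower and 8.67% higher (33.0% in either direction). Without GFP-NEG replicate 1 it was 0.20 (adjusted p of 0.89), without GFP-HI replicate 2 it was -1.11 (0.36) and without GFP-HI replicate 1 it was -1.83 (0.12). DESeq2, which called 26.7% of genes lower and 6.91% higher (33.6% in either direction), gave RSPO2 an adjusted p of 0.13. The RSPO2 call was therefore lost without any one of 3 libraries, and its direction turned without GFP-NEG replicate 1.

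RSPO3, an R-spondin with roles in blood vessel development, had 12.3 and 18.3 CPM in GFP-HI and 15.1 and 3.07 CPM in GFP-NEG. The fractions overlapped, since GFP-NEG replicate 1 lay between the GFP-HI values and GFP-NEG replicate 2 lay below both. The log2 fold change of 0.77 ± 0.63 (SE) did not pass the threshold (adjusted p of 0.37, edgeR). The direction differed between the replicates, with -0.29 in replicate 1 and 2.53 in replicate 2. Without GFP-NEG replicate 1, RSPO3 was called higher in GFP-HI (2.32, adjusted p of 0.035), and without GFP-NEG replicate 2 the value was 0.023 (0.99).

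RSPO1, which acts in ovary and skin among other tissues, had 5.80 and 1.44 CPM in GFP-HI and 9.94 and 2.85 CPM in GFP-NEG. In both fractions replicate 1 was the higher, by 4.03 times in GFP-HI and 3.49 times in GFP-NEG, so the spread between replicates was larger than the difference between fractions. The log2 fold change was -0.81 ± 0.88 (SE, adjusted p of 0.51, edgeR), and the differences within replicates were -0.76 and -0.92. Without GFP-NEG replicate 1 the sign turned (0.34, adjusted p of 0.86). The mesothelial genes WT1, CALB2 and BNC1 had 0 to 3 counts in the GFP-HI libraries and 0 to 24 in the GFP-NEG libraries. The other listed mesothelial genes, MSLN, UPK3B and LRRN4, were not found by name in the count tables. These counts therefore do not tell whether mesothelial cells were present.

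RSPO4, best known for its part in nail formation, had 0 counts in both GFP-HI libraries, which allows up to 0.136 and 0.149 CPM. It had 3 and 5 counts in GFP-NEG, or 0.466 and 0.548 CPM, and was too low to be tested.

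The 4 R-spondins summed to 27.9 and 25.6 CPM in GFP-HI and to 61.5 and 13.3 CPM in GFP-NEG. The GFP-HI values lay between the GFP-NEG values, so the total ligand level did not separate the fractions. GFP-NEG replicate 1 exceeded GFP-NEG replicate 2 by 5.30 times for RSPO2, 4.91 times for RSPO3 and 3.49 times for RSPO1. The same pair of libraries differed by 6.51 times in the summed smooth muscle and pericyte list (2730 against 419 CPM, with 2456 and 2841 CPM in GFP-HI; 10 genes, 2 higher and 3 lower, none at 0 in any library). They differed by 3.25 times in the epithelial list, 2.80 times in the fibroblast list and 2.36 times in the endothelial list, none with a gene at 0, whereas the immune list was lower in GFP-NEG replicate 1, at 0.683 times. The part of these cells in the ligand values was not tested.

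The makeup of the R-spondin counts was apart between the fractions for RSPO3 and RSPO2, unlike their total. RSPO3 gave 44.1% of the R-spondin counts in GFP-HI replicate 1 (Wilson 95% interval 40.2 to 48.0%) and 71.7% in GFP-HI replicate 2 (67.7 to 75.4%). The intervals cover counting error only, and the 2 GFP-HI libraries lie outside each other's. It gave 24.5% (20.5 to 29.0%) and 23.1% (16.5 to 31.4%) in GFP-NEG. RSPO2 showed the mirror image, with 35.1% and 22.7% in GFP-HI against 58.6% and 51.2% in GFP-NEG. The shares of a library add up to the whole, so a higher share of RSPO3 leaves less for the others. The RSPO2 shares and the ratio below are therefore no separate observations. For each RSPO3 count the bright libraries held 0.797 and 0.316 RSPO2 counts and the negative libraries 2.39 and 2.21. This ratio is taken inside a library and needs no scaling. Its fractions did not overlap, but 2 libraries against 2 cannot give an exact two-sided permutation p below 0.333, and the ratio was chosen after the counts were seen. Of single tested genes, 27.7% were apart and higher in GFP-HI and 42.0% apart and lower.

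**Figure D4:**
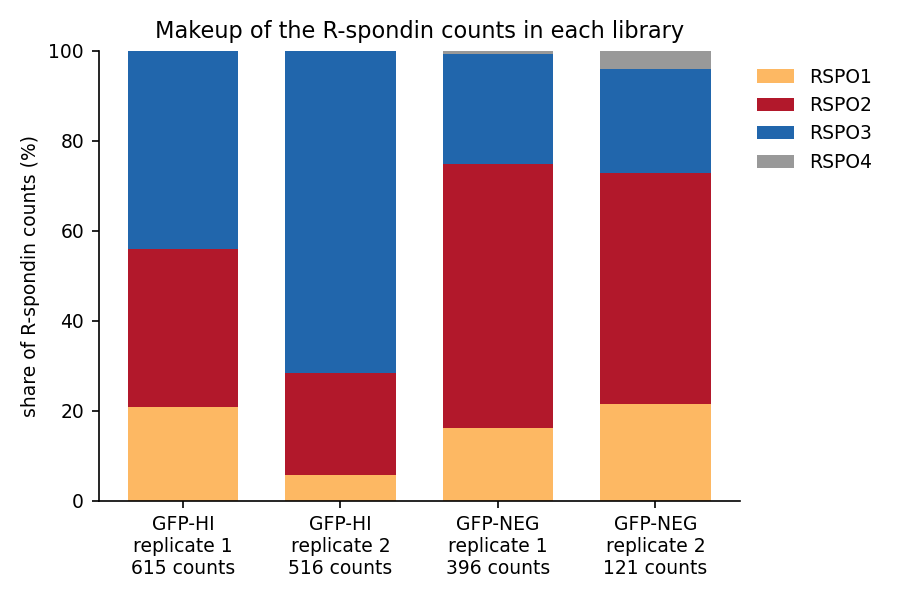
Share of each R-spondin in the R-spondin counts of each library (stacked bars, percent, with the number of counts under each bar). RSPO3 took 44.1% and 71.7% in GFP-HI but 24.5% and 23.1% in GFP-NEG. Transcript lengths were not accounted for, so a share compares libraries and not genes.

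Both ligases had higher values in GFP-HI, but neither passed the threshold. ZNRF3 had 13.9 and 19.0 CPM in GFP-HI and 8.54 and 11.07 CPM in GFP-NEG, so the fractions were apart with the main scaling. Its log2 fold change was 0.74 ± 0.62 (SE, adjusted p of 0.37, edgeR), with 0.69 and 0.77 within the replicates. RNF43 had 5.21 and 2.28 CPM in GFP-HI and 2.17 and 0.658 CPM in GFP-NEG. The lower GFP-HI value was 2.28 CPM and the higher GFP-NEG value 2.17 CPM, within their counting intervals (1.67 to 3.04 and 1.19 to 3.65 CPM). The log2 fold change of RNF43 was 1.42 ± 1.14 (SE, adjusted p of 0.35, edgeR), with 1.21 and 1.60 within the replicates. Leaving out GFP-HI replicate 1 or GFP-NEG replicate 2 gave 0.77 and 0.78 for RNF43. Leaving out GFP-NEG replicate 1 gave 2.50, and RNF43 was called in none of these 3 fits. Groups that do not overlap and are higher in GFP-HI were found for 27.7% of all tested genes (42.0% were apart and lower), so the order of the libraries alone adds little for either ligase. Together the ligases summed to 19.1 and 21.3 CPM in GFP-HI and 10.7 and 11.7 CPM in GFP-NEG, a ratio of 1.78 within replicate 1 and 1.81 within replicate 2.

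The authors' deposited table lists the 8 tested members and gives the same direction for each. LGR4 stands at 1.84 on the log2 scale in the authors' deposited table (adjusted p of 0.044), and LGR6 at -3.80 (0.026). RSPO2 is at -1.45 with an adjusted p of 0.15 in the authors' deposited table, so it is not called there, and 8.20% of the listed genes are called higher and 11.2% lower (19.4% in either direction). RSPO3, ZNRF3, RNF43 and RSPO1 are not called in the authors' deposited table either, with adjusted p-values of 0.48, 0.39, 0.34 and 0.55.

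The rest of the pathway was described with 6 lists holding 60 genes, of which 47 could be tested. Of these, 16 were called higher and 6 lower in GFP-HI, beside 8.35% and 27.6% over all genes. These shares depend on level, and the lists hold genes of several levels. Among genes of 10 to 100 CPM 14.7% were higher and 10.5% lower, and among those of 1 to 10 CPM 1.47% and 41.0%. The counts are descriptions of these lists, several of which hold genes typical of fibroblasts, whose markers moved with the fractions. Their part in these counts was not tested.

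Among the Frizzled receptors, which the ligases remove, and the LRP co-receptors, 3 of 12 genes were higher, 4 lower and 5 not called, with a median log2 fold change of 0.12 that turned to -0.32 with library-size scaling. FZD2 rose from 1.71 and 0.877 CPM in GFP-NEG to 36.0 and 15.9 CPM in GFP-HI (log2 fold change 4.35, adjusted p of 1.5e-07, edgeR). FZD1 (2.57) and FZD7 (1.60) were also called higher. The FZD1 call was lost without GFP-NEG replicate 2 (adjusted p of 0.17) or without GFP-HI replicate 1 (0.050), and FZD7 lost its call in 6 of 12 alternatives, among them library-size scaling (0.17). FZD9, FZD8, FZD6 and FZD5 were called lower, at -5.42, -3.51, -3.31 and -2.50. FZD9 had 2 and 2 counts in GFP-HI, under the floor of 3 counts, against 33 and 34 in GFP-NEG, so the size of its difference is uncertain. FZD6 had 1.63 and 1.39 CPM in GFP-HI against 21.3 and 8.99 CPM in GFP-NEG. With only 4 and 0 counts in the bright libraries and 7 and 11 in the negative ones, FZD8 was not called with the replicate block (adjusted p of 0.17). LRP5 and LRP6, the co-receptors for Wnt, were at 1.32 and 1.17 and were not called (adjusted p of 0.14 and 0.088, edgeR).

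Of 8 tested partners of the receptors and ligases, 2 were higher and 0 lower. The median was 0.78, but 1.40 without GFP-NEG replicate 1 and 0.41 with library-size scaling, and leaving out GFP-HI replicate 1 gave 0.42. TNFRSF19, a receptor reported to associate with LGR5, had 178 and 180 CPM in GFP-HI and 10.7 and 8.003 CPM in GFP-NEG (log2 fold change 4.26, adjusted p of 2.3e-09, edgeR). The fractions were far apart, and the difference was 4.03 and 4.47 within the replicates. DVL3, a Dishevelled protein of the kind that brings the ligases to Frizzled, was at 1.32 (adjusted p of 0.036), and lost its call in 6 of 12 alternatives, among them library-size scaling (0.17). DVL1 and DVL2 were at 0.88 and 0.68 and were not called.

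R-spondins also bind heparan sulfate proteoglycans, and 4 of 8 tested syndecans and glypicans were higher and 1 lower (median 1.41, the same with GPC5 set at its bound, and 2.12 without GFP-NEG replicate 1). SDC2 had 505 and 372 CPM in GFP-HI and 112 and 24.9 CPM in GFP-NEG (2.68, adjusted p of 5.1e-04, edgeR). GPC3 (2.65), GPC4 (1.87) and SDC1 (1.44) were called higher with adjusted p-values of 0.017, 0.013 and 0.025. Without GFP-NEG replicate 2 none of these 4 was called. GPC5, with 0 counts in both GFP-HI libraries, had 8 and 11 in GFP-NEG, at least 8.11-fold lower when the lower GFP-NEG value is set against the floor of 3 counts in a GFP-HI library, and it was not called without either GFP-NEG library (adjusted p of 0.12 and 0.21). The other leucine-rich repeat receptors of the wider family (FSHR, LHCGR, TSHR, RXFP1 and RXFP2) had between 0 and 19 counts in each library, and 0 of 5 could be tested.

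Among 11 tested Wnt feedback genes outside the family, 5 were higher and 1 lower. The median was 0.89, but 1.98 without GFP-NEG replicate 1 and 0.44 with library-size scaling. SFRP1, a secreted Wnt-binding protein, had 177 and 370 CPM in GFP-HI and 17.4 and 9.21 CPM in GFP-NEG (4.37, adjusted p of 1.1e-08, edgeR). AXIN2, NKD1 and APCDD1, inhibitors that Wnt signalling induces, were at 2.78, 2.16 and 2.07. TCF7 and LEF1, at -1.12 and -0.65, and NOTUM, DKK1 and DKK2, at 0.75, 0.89 and 0.76, were not called. The AXIN2 and NKD1 calls were lost without GFP-NEG replicate 2 (adjusted p of 0.12 and 0.28), and APCDD1 lost its call in 6 of 12 alternatives, among them library-size scaling (0.16). WIF1, a secreted Wnt inhibitor, was at -2.77, but at -0.08 without GFP-NEG replicate 1, where it had 400 CPM against 30.4 to 33.4 CPM in the other libraries. Of 8 tested genes of the destruction complex and its TCF factors, 2 were higher (BCL9 at 1.44 and TCF7L2 at 1.40) and 0 lower, with a median of 0.41 that was 0.010 with library-size scaling. TCF7L2 lost its call in 8 of 12 alternatives and BCL9 in 4, both of them under library-size scaling (adjusted p of 0.16 and 0.11).

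**Figure D5:**
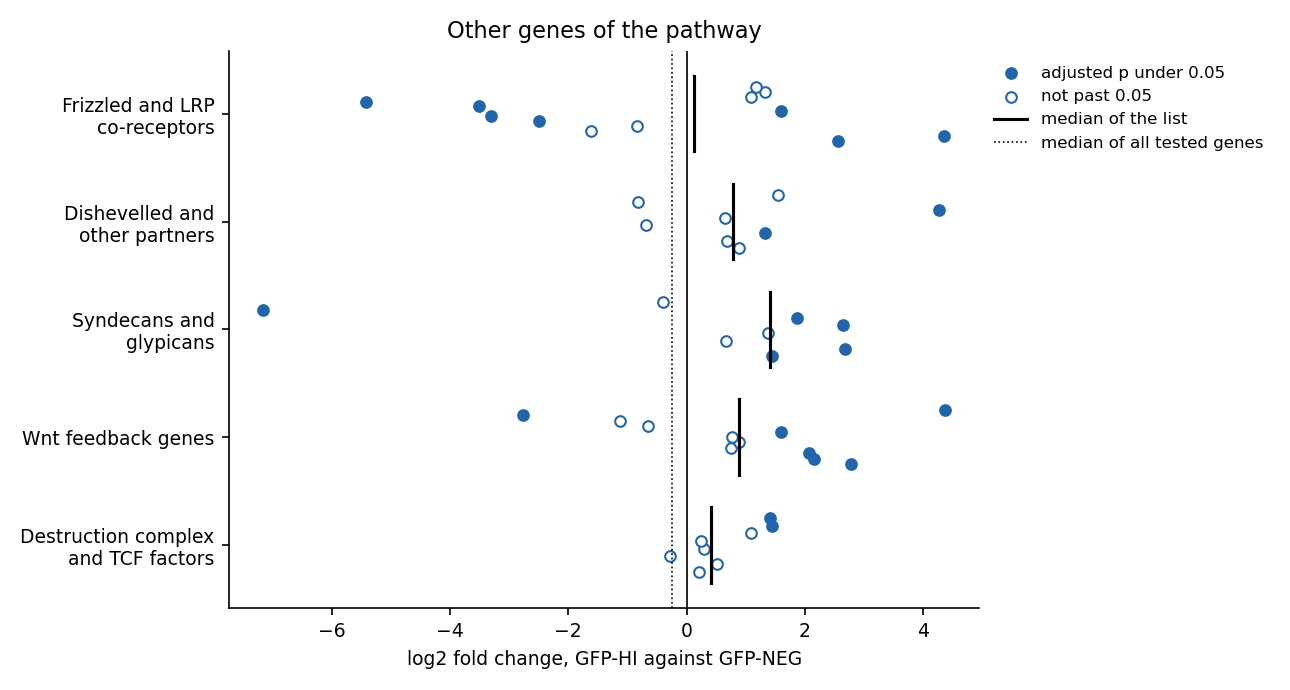
Log2 fold change of GFP-HI against GFP-NEG for the 47 tested genes of the pathway lists, 1 point per gene, filled where the adjusted p was under 0.05, with the median of each list (bar) and of all tested genes (dotted line). The Frizzled list spread to both sides, and the point at the far left is the fitted value of GPC5, which had 0 counts in GFP-HI.

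For each called member, the 3 genes with the most similar profile over the 4 libraries were named, by the root mean square distance of centred log2 CPM among 9246 genes with a symbol and a mean of at least 10 CPM (9245 where the member itself was among them). With 4 libraries many genes lie close, and no test was made. The profile nearest to LGR4 was that of TUBB6, a tubulin, at a distance of 0.024, followed by DHDH and TMEM237 (0.031 and 0.034). TUBB6 had 157 and 234 CPM in GFP-HI and 79.6 and 34.1 CPM in GFP-NEG. LGR5 stood farther from its neighbours, which were CRABP1, a retinoic acid-binding protein, OSR2, a transcription factor, and HMCN2 (0.57, 0.62 and 0.76). The genes nearest to LGR6 were NLRC5, a regulator of antigen presentation, NOD2, an intracellular sensor of bacteria, and CSRNP1 (0.18, 0.34 and 0.37). The genes nearest to RSPO2 were HAPLN3, C1QB, a complement gene of macrophages, and SIGLEC1, a macrophage surface protein (0.077, 0.16 and 0.19), and in each of them GFP-NEG replicate 1 was the high library.

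EPCAM and NGFR, the surface proteins named in the sorting protocol (no gate on them is stated for these libraries), were low. EPCAM had 2.04 and 1.64 CPM in GFP-HI and 5.59 and 3.84 CPM in GFP-NEG (log2 fold change -1.35 ± 1.05, SE, adjusted p of 0.34, edgeR). NGFR had at most 7 counts in any library and could not be tested.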

How the data were processed

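Whole-number counts per gene were deposited by the authors for 4 libraries, with 29263 genes each and 0 rows without a gene name. The submitters' processing notes name featureCounts, Subread 1.5.2 and DESeq2 1.37.6. Aligner and strand setting are not given in the sources used here, so overlapping genes are uncertain. No label names the genome build, and the name of the authors' comparison table carries only an annotation version. The authors' deposited table also gives, for 16250 genes, a log2 fold change with its p-value, raw and adjusted. Its 4 normalized columns were not used, since the headings of some do not match the counts beside them. Of the identifiers, 844 matched the name table and 834 were renamed.

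Counts were tested with edgeR 4.0.16 (R 4.3.3; TMM, filterByExpr, quasi-likelihood test, group only), with Benjamini-Hochberg adjustment over 19682 genes. CPM, as edgeR's cpm function gives them, use TMM-scaled totals. The prior degrees of freedom were infinite, so a gene's own scatter between replicates carried no weight in its test. Each SE is the absolute log2 fold change divided by the square root of the test's F statistic. It shares this limit and does not measure the spread of that gene's replicates. Differences within replicates use a prior of 2 counts. The scripts were run on simulated counts with few changed genes, evenly split by direction. The real libraries gave far more calls, most of them lower in GFP-HI, so that run does not check the scaling for such data. DESeq2 1.42.0, other scalings, filters, thinning, a replicate block and leaving out libraries were alternatives.

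The titles number biological replicates and the headers of the authors' table number pigs 1 and 2 in each fraction, which is where the pairing comes from, although some of those headers do not match their values. Replicate deviations correlated between fractions with r = 0.16 across genes, which are not replicates. Named genes were the 9 members, EPCAM, NGFR, the called genes of each pathway list (up to 4 in each direction) and the 3 genes of most similar profile. Members and lists were chosen with earlier results of these data known.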

Additional observations from a re-analysis of the deposited data

How the results depend on the processing

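Depth limits the GFP-NEG side, where 3 counts are worth 0.466 and 0.329 CPM, against 0.136 and 0.149 CPM in GFP-HI. Over the 12 alternatives LGR5 kept its direction and call, and no call was gained or lost for RSPO1, RNF43 or ZNRF3. LGR4 was at 1.46 with library size alone and 1.57 with upper-quartile scaling, where the median of all genes moved from -0.25 to -0.68 and -0.58, and both lost its call, leaving 1 member higher. RSPO2 lost its call under DESeq2 (-1.48), thinning of GFP-HI to the GFP-NEG depth (-1.48), the stricter filter (-1.48), no filter (-1.41) and the replicate block (-1.08), leaving 1 member lower in each. The block changed no other member's call. Leaving out single libraries gave log2 fold changes of 1.33 to 2.62 for LGR4, -8.57 to -2.74 for LGR6, -2.08 to 0.34 for RSPO1, -2.21 to 0.20 for RSPO2, 0.023 to 2.32 for RSPO3, 0.77 to 2.50 for RNF43 and 0.53 to 1.03 for ZNRF3, with 1 to 3 members higher and 0 to 1 lower. Genes called higher numbered 888 with library size alone and 1083 with upper-quartile scaling, against 1643, and 204 to 1539 without single libraries. Genes called lower numbered 3575 after thinning, against 5433, and 1373 to 4680 without single libraries. Pathway genes called higher fell from 16 to 9 after thinning, with library size alone and with upper-quartile scaling, and numbered 3 to 16 without single libraries. The cause of these changes was not tested.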
